A study of Mus musculus with 6 samples.

Results

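The genes described here encode proteins of the splicing machinery that mouse splenic natural killer (NK) cells express, grouped by family name. They are the protein-coding genes whose symbols start with Srsf, Hnrnp, Snrp, Sf3a, Sf3b, U2af, Prpf or Srrm. Of 8520 genes in the deposited table, 65 are such members: 10 SR protein genes (Srsf), 20 heterogeneous nuclear ribonucleoprotein genes (hnRNPs), 10 Snrp genes, 11 Sf3 and U2af genes, 12 Prpf genes and 2 Srrm genes. RefSeq annotates 73 such protein-coding genes in the mouse, and the other 8 (Hnrnpa1l2-ps2, Prpf40b, Sf3b5, Snrpf, Snrpn, Srrm3, Srrm4 and Srsf12) are not analysed here. Every listed gene reached 10 CPM (read counts scaled to a library of 1000000 reads) in at least 2 libraries, so low members are outside the table. RNA was sequenced from NK cells sorted as CD3-negative and NK1.1-positive from spleens of 20 C57BL/6Ncr mice aged 6 to 8 weeks, with no treatment. The Ly49G+ group was positive for Ly49G, stained with antibody 4D11, and negative for Ly49C/I. The Ly49I+ group was negative for Ly49G and positive for Ly49C/I, stained with antibody 5E6, which binds both Ly49C and Ly49I, so these cells carry Ly49I, Ly49C or both. Each group has 3 libraries, called biological replicates in the labels. The labels do not tell how mice were divided over libraries, so a p-value here reflects library spread, which may be technical.

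The spliceosome removes introns from pre-mRNA in ordered steps carried out by small nuclear ribonucleoproteins (snRNPs), in which an RNA is wrapped by Sm proteins and bound by particle-specific proteins. SR proteins mostly bind exonic enhancers and help splice sites to be recognised, whereas many hnRNPs bind silencers and oppose them, and the balance of the families shapes which exons a cell includes. In lymphocytes these factors are known for the alternative exons of the CD45 phosphatase gene Ptprc, where Hnrnpl and Hnrnpll favour exon skipping. Ly49 receptors bind MHC class I molecules, and the question set by the sort is how the RNA of NK cells with different Ly49 receptors compares.

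The libraries held 33599679 to 40892154 reads, and the least read count of any listed gene was 8. Counting error was not separated from spread between libraries. All 12 markers of NK cells were listed, with summed levels of 15490 to 15687 CPM in Ly49G+ libraries and 15989 to 16589 CPM in Ly49I+ libraries. Of 9 T cell markers, 5 were listed (Cd28, Cd3d, Cd3e, Cd3g and Trac), summing to 194 to 256 CPM in Ly49G+ libraries and 104 to 115 CPM in Ly49I+ libraries, with Cd4, Cd8a, Cd8b1 and Cd5 not listed. Of 11 myeloid markers, 10 were listed (Ace, Adgre4, Csf1r, Cst3, Cybb, Fcgr3, Itgax, Lyz2, Sirpa and Treml4). They summed to 1167 to 1291 CPM in Ly49G+ libraries and 1250 to 2137 CPM in Ly49I+ libraries, the top value being that of Ly49I+ replicate 2. Such sums do not show which cells carried these RNAs, and the NK cells themselves may be among them. Of 9 B cell markers 2 were listed, with 16.1 to 52.9 CPM in Ly49G+ libraries and 25.1 to 96.6 CPM in Ly49I+ libraries, and 0 of 6 erythroid markers were listed. Any part of other cells in the values below was not tested, and in bulk RNA fewer cells of a type and less RNA per cell cannot be told apart.

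Per kilobase of transcript, the splicing factor genes ran from 5.24 to 526.5 CPM in Ly49G+ libraries. Hnrnpa2b1, an hnRNP that also guides RNA transport, had the highest level at 526.5 ± 61.8 CPM per kb in Ly49G+ libraries and 462 ± 63.1 CPM per kb in Ly49I+ libraries (SD, n = 3 each). Srsf5, an SR protein gene, followed with 420 ± 37.6 CPM per kb in Ly49G+ and 406 ± 28.0 CPM per kb in Ly49I+ libraries, and Hnrnph1, which binds G-rich RNA, with 301 ± 18.1 and 265 ± 34.8 CPM per kb in Ly49G+ and in Ly49I+ libraries. Hnrnpa2b1 and Srsf5 lay within an SD of each other in Ly49I+ libraries, and Srsf5 and Hnrnph1 lay farther apart than their SDs in both groups. The lowest were Hnrnph3, at 5.24 ± 0.67 CPM per kb in Ly49G+ and 4.5 ± 0.96 CPM per kb in Ly49I+ libraries, and Hnrnpll, at 6.56 ± 0.87 and 6.56 ± 0.32 CPM per kb in Ly49G+ and in Ly49I+ libraries. The median member had 60.1 CPM per kb in Ly49G+ libraries, with class medians there of 112 for hnRNPs, 111 for SR proteins, 49.1 for Sf3 and U2af genes, 33.9 for Prpf genes and 21.0 for Snrp genes. These levels rest on the median transcript length of each gene, and the transcript lengths in use in these cells were not measured.

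Splicing factor genes differed by at most 1.24-fold between the population means in the direction of Ly49G+. In the limma test with Benjamini-Hochberg adjustment over all genes, 0 of 65 members passed an adjusted p of 0.05, the threshold used here. Of all genes 3.59% did, counting either direction. The lowest adjusted p of a member was 0.0716, and the same count of 0 was given by limma with voom precision weights. In an alternative fit, with libraries paired by replicate number, whose meaning the labels do not give, 12 members (18.5%) passed, all higher in Ly49G+. Of these, 5 were SR proteins and 5 hnRNPs. In that paired fit 5.69% of all genes passed as higher and 5.96% as lower in Ly49G+, 11.65% in either direction. After correction for the G+C content of transcripts, which the differences followed over all genes, 7 of the 12 passed in that fit. They were 10.8% of members, where 4.53% of all genes were higher and 3.92% lower in Ly49G+ (8.45% in either direction). With the G+C content of the longest transcript 4 members (6.15%) passed, all higher, where 4.27% of all genes were higher and 3.86% lower. In either direction 8.14% of all genes passed there, more than the share of members. Without the pairing, the G+C correction gave 3 members (4.6%), all higher in Ly49G+, against 6.3% of all genes in either direction. With the longest transcript it was also 3 members (4.6%), all higher, against 6.6%. At an unadjusted limma p of 0.05, without pairing or correction, 14 members (21.5%) were higher in Ly49G+ libraries, against 9.59% of all genes. In the other direction 0 members were lower, against 10.2% of all genes. Between members the log2 difference of Ly49G+ minus Ly49I+ ran from -0.30 (Snrpb) to 0.31 (Hnrnpa1), folds of 0.812 to 1.24. The median over members was 0.08, and over all genes it was -0.02.

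**Figure D1:**
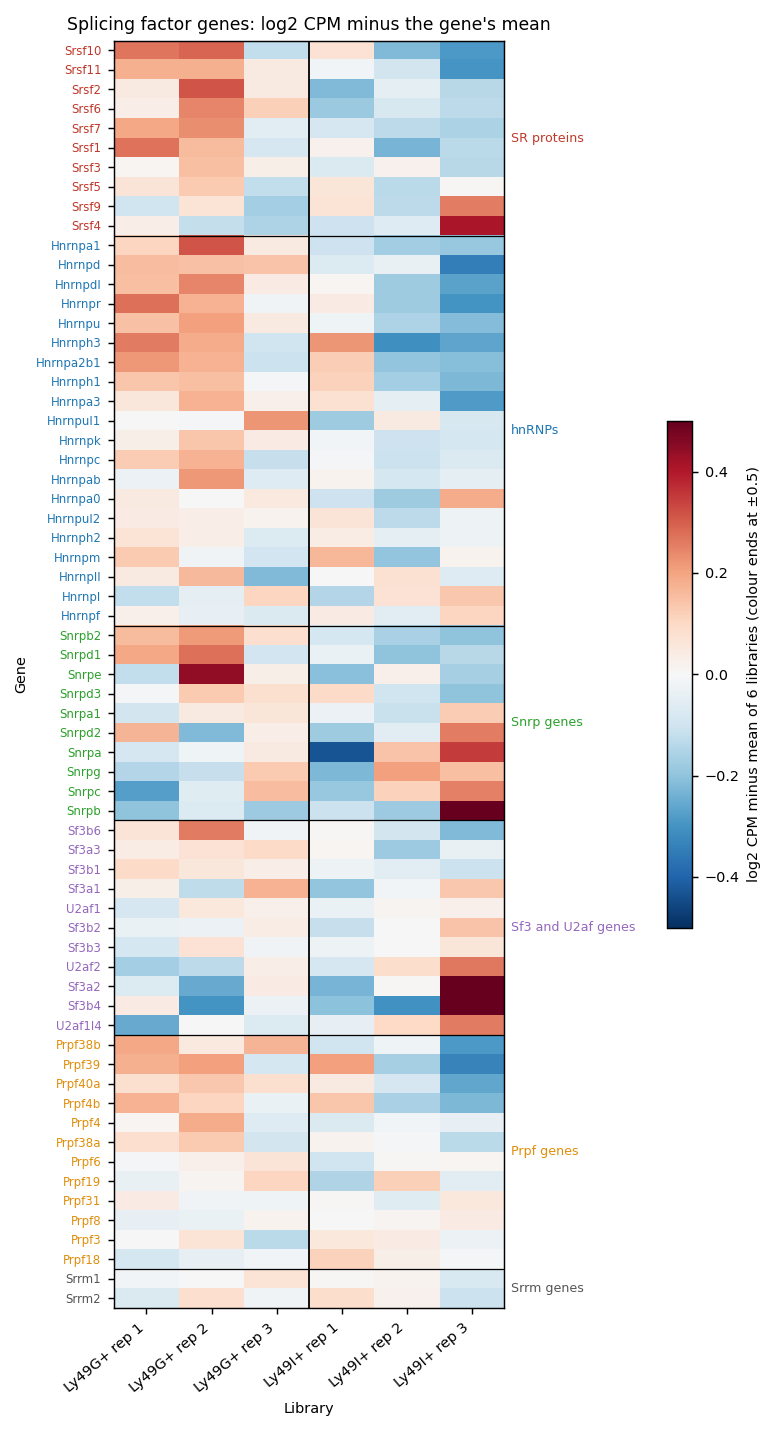
Log2 CPM of each of the 65 splicing factor genes minus its mean over the 6 libraries, with genes in rows by family and libraries in columns, Ly49G+ left of Ly49I+. Red marks higher and blue lower values, with colours ending at ±0.5, and most SR protein and hnRNP rows are red in Ly49G+ replicates 1 and 2 while Snrpb, Sf3b4 and Sf3a2 are darkest red in Ly49I+ replicate 3.

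Separation of the libraries leaned the same way. The Ly49G+ and Ly49I+ values did not overlap for 15 members, of which 14 (21.5%) were higher in Ly49G+, against 12.5% of all genes. The exception was Prpf18 (1.54% of members), lower in Ly49G+, where 13.4% of all genes were separated in that direction. When libraries with the same replicate number were set against each other, 27 members (41.5%) were higher in Ly49G+ in all 3 pairs, against 23.6% of all genes, and 5 members (7.69%) were lower in all 3, against 25.9% of all genes. With the replicate number as a block in the limma fit, 12 members passed the threshold with higher values in Ly49G+ and 0 with lower ones, where 5.69% of all genes were higher and 5.96% lower. The 12 were Srsf2, Srsf6, Srsf7, Srsf10, Srsf11, Hnrnpa1, Hnrnpd, Hnrnpdl, Hnrnpr, Hnrnpu, Snrpb2 and Prpf38b. The block leaves each difference as it is and alters its error. Without Ly49I+ replicate 1, and with no block, 7 members (10.8%) passed, all higher in Ly49G+, where 3.49% of all genes were higher and 4.07% lower, whereas leaving out any other library gave 0.

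Among SR protein genes, 8 of 10 were higher in Ly49G+ libraries, with a median log2 difference of 0.24. Of all genes 46.5% were higher. By G+C content it was 77.9% up to 44.7%, 55.0% from there to 51.1% and 22.7% above, with SR protein genes in each range. After the G+C correction described below, 6 of 10 SR protein genes were higher (median 0.14), where 3979 of 8235 genes were higher. With the replicate block 5 of 10 passed the threshold as higher, against 5.69% of all genes. Srsf6, also called SRp55, had 205, 238 and 217 CPM in Ly49G+ replicates 1, 2 and 3, against 176, 189 and 183 CPM in Ly49I+ replicates 1, 2 and 3. All Ly49G+ values lay above all Ly49I+ values, with a log2 difference of 0.26 ± 0.08 (SE) and an adjusted p of 0.0918, or 0.0197 with the replicate block. The block with the G+C correction of the longest transcript gave 0.17 and ended the call (adjusted p = 0.0792). Srsf2, also called SC35 and a protein of nuclear speckles, had 193, 232 and 192 CPM in Ly49G+ libraries, against 160, 181 and 170 CPM in Ly49I+ libraries. The groups did not overlap, and the log2 difference was 0.27 ± 0.09, with an adjusted p of 0.142, or 0.0215 with the block. Srsf11, a divergent SR-related protein, had 329, 329 and 300.5 CPM in Ly49G+ libraries, against 288, 273 and 237 CPM in Ly49I+ libraries. The Ly49G+ values were again all higher, by 0.27 ± 0.09 on the log2 scale, with an adjusted p of 0.123, or 0.0177 with the block.

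Srsf7, known as 9G8 and as an export adaptor for mRNA, had 202, 208 and 170 CPM in Ly49G+ libraries, against 167, 161 and 158 CPM in Ly49I+ libraries. The log2 difference was 0.25 ± 0.09, with an adjusted p of 0.152, or 0.0392 with the block. The G+C correction added to the block gave 0.16 and ended the call (adjusted p = 0.165). Srsf10, which represses splicing when dephosphorylated, had 194, 197 and 148 CPM in Ly49G+ libraries, against 170, 138 and 132 CPM in Ly49I+ libraries. Its groups overlapped, since Ly49G+ replicate 3 lay below Ly49I+ replicate 1, and it passed only with the block (log2 difference 0.29 ± 0.13, adjusted p = 0.239, or 0.0291 with the block). That call was lost with the G+C correction added to the block (0.18, adjusted p = 0.136). Srsf1, the founding SR protein, had 520, 481 and 407 CPM in Ly49G+ libraries, against 438, 367 and 393 CPM in Ly49I+ libraries, and did not pass under either fit (log2 difference 0.23 ± 0.10, adjusted p = 0.246, or 0.0553 with the block). Srsf5, the SR protein gene with the highest level per kilobase, showed 645, 676 and 567 CPM in Ly49G+ libraries, against 643, 562 and 620 CPM in Ly49I+ libraries, and its difference of 0.05 ± 0.09 changed sign when transcript G+C content was corrected for. Srsf4 and Srsf9 were the SR protein genes with lower means in Ly49G+ (-0.16 ± 0.13 and -0.13 ± 0.13 on the log2 scale), neither past the threshold. For Srsf4, whose exons have 67.9% of their bases under an annotated gene on the opposite strand, 63.6, 57.3 and 55.9 CPM in Ly49G+ libraries stood against 57.9, 59.5 and 82.5 CPM in Ly49I+ libraries, so the lower mean rests on Ly49I+ replicate 3.

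The hnRNP genes had higher means in Ly49G+ libraries in 17 of 20 cases, against 46.5% of all genes, with a median log2 difference of 0.14. By G+C content, 77.9% of all genes up to 44.7% were higher, 55.0% from there to 51.1% and 22.7% above, with hnRNP genes in each range. After the G+C correction described below, 17 of 20 hnRNP genes were higher (median 0.10), where 3979 of 8235 genes were higher. With the block 5 of 20 passed as higher, against 5.69% of all genes. Hnrnpa1, a repressor that binds exonic and intronic silencers, had 315, 364 and 301 CPM in Ly49G+ libraries, against 272, 259 and 257 CPM in Ly49I+ libraries. It was higher in every pair, with a log2 difference of 0.31 ± 0.08 and an adjusted p of 0.0716, or 0.0137 with the block. Its level is uncertain, because 43.0% of the 100-base windows of its transcripts also occur in another annotated gene, 10 such genes in all. Hnrnpd, also called AUF1, binds AU-rich elements of unstable mRNAs, and had 207, 206 and 206 CPM in Ly49G+ libraries, against 178, 182 and 147 CPM in Ly49I+ libraries. The Ly49G+ libraries barely varied and all exceeded the Ly49I+ ones, by 0.30 ± 0.09 on the log2 scale (adjusted p = 0.0985, or 0.0202 with the block). The block with the G+C correction of the longest transcript gave 0.19 (adjusted p = 0.102). Hnrnpdl, the paralog of Hnrnpd, had 308, 329 and 286 CPM in Ly49G+ libraries, against 280, 246 and 231 CPM in Ly49I+ libraries. It too was separated, with a log2 difference of 0.29 ± 0.09 (adjusted p = 0.107, or 0.0177 with the block). The paralogs lie 54446 bases apart on chromosome 5, Hnrnpd at chr5:99955935-99979130 and Hnrnpdl at chr5:100033577-100039936 (GRCm38.p6).

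Hnrnpr, a paralog of the RNA-binding protein gene Syncrip, had 238, 221 and 194 CPM in Ly49G+ libraries, against 202, 174 and 160 CPM in Ly49I+ libraries. The groups overlapped at 1 library each, Ly49G+ replicate 3 lying below Ly49I+ replicate 1, while every pair was higher in Ly49G+ (log2 difference 0.29 ± 0.10, adjusted p = 0.167, or 0.0134 with the block). With the longest-transcript G+C correction added the difference was 0.17 (adjusted p = 0.0771). Hnrnpu, a nuclear scaffold protein that binds chromatin and RNA, had 880, 918 and 820.5 CPM in Ly49G+ libraries, against 784, 714 and 686 CPM in Ly49I+ libraries. All Ly49G+ values were higher, by 0.26 ± 0.08 on the log2 scale (adjusted p = 0.103, or 0.0213 with the block). With the G+C correction added to the block the difference was 0.14 and the call was lost (adjusted p = 0.122). The abundant Hnrnpa2b1 had 939, 911 and 751 CPM in Ly49G+ libraries, against 881, 705 and 697 CPM in Ly49I+ libraries, which overlapped, and it did not pass (0.19 ± 0.11, adjusted p = 0.360, or 0.101 with the block). Hnrnph1 had 689, 695 and 623 CPM in Ly49G+ libraries, against 679, 556 and 536 CPM in Ly49I+ libraries, a log2 difference of 0.19 ± 0.10, and passed only without Ly49I+ replicate 1 (adjusted p = 0.0483). The CD45 exon regulators did not pass under either fit. Hnrnpll had 20.6, 22.4 and 17.2 CPM in Ly49G+ libraries, against 20.0, 21.1 and 19.2 CPM in Ly49I+ libraries. Hnrnpl had 234, 246 and 274 CPM in Ly49G+ libraries, against 230, 268 and 280 CPM in Ly49I+ libraries. Their 95% intervals of the log2 difference were -0.29 to 0.27 for Hnrnpll and -0.25 to 0.16 for Hnrnpl.

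**Figure D2:**
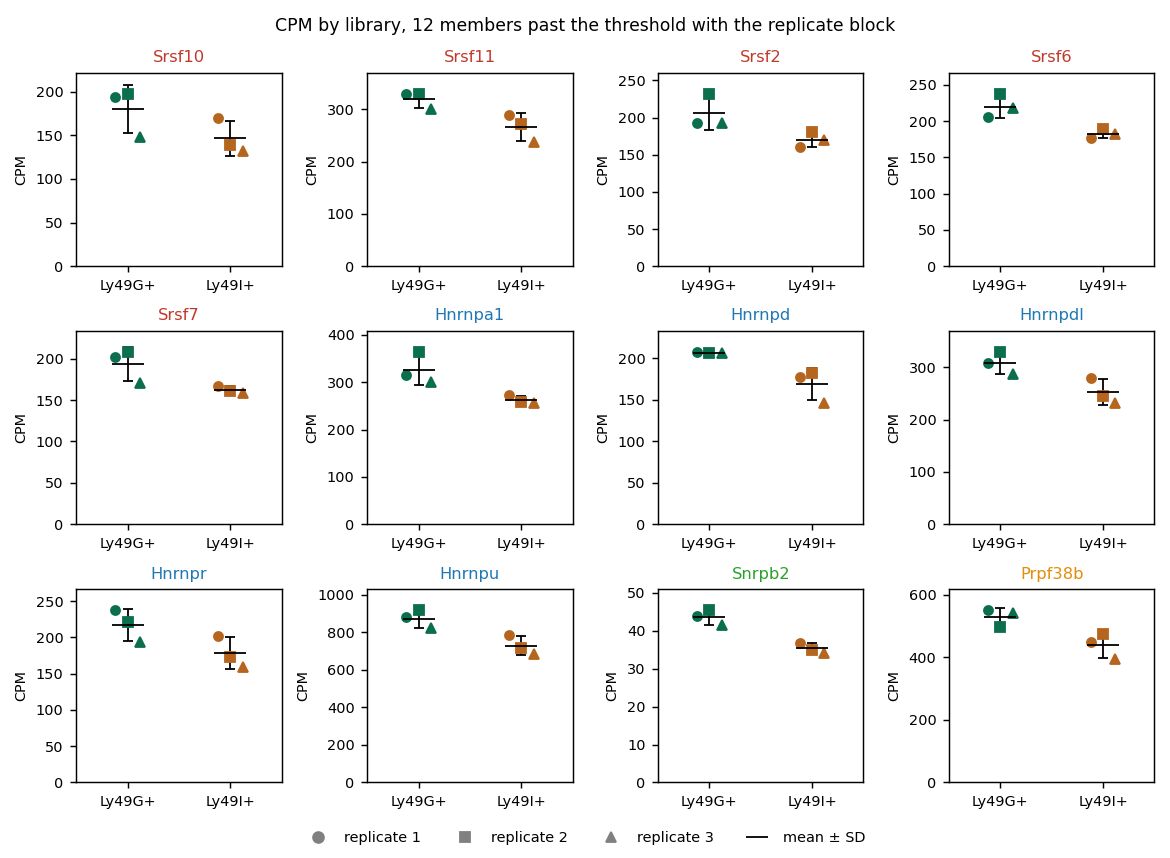
CPM of the 12 splicing factor genes past the threshold with the replicate block, 1 panel per gene with an axis from 0, Ly49G+ libraries left and Ly49I+ libraries right, marker shape giving the replicate number, and lines giving mean ± SD of 3 libraries. The groups are apart in 10 panels and overlap for Srsf10 and Hnrnpr, where Ly49G+ replicate 3 lies below Ly49I+ replicate 1.

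Promoters were read for the 4 members that passed with the block under each way of handling G+C content described below (Srsf2, Srsf11, Hnrnpa1 and Hnrnpdl), a set chosen after their values were seen. Each window runs from 250 bases before to 50 bases after an annotated start, 5′ to 3′ on the gene's strand, from RefSeq on GRCm38.p6. For Srsf11 the first of 2 annotated windows is shown. The Srsf2, Hnrnpa1 and Hnrnpdl windows lie wholly inside the annotated span of the gene, so the start used is not its outermost one. Capitals mark matches, on either strand, to GGGCGG (the GC box that Sp1 binds), CCGGAAG (an ETS family element), CCAAT (the CCAAT box that NF-Y binds), TATAAA (the TATA box), the NRF1 element (its palindromic core) and TGACGTCA (the cAMP response element); overlapping matches are merged.
Srsf2 promoter, chr11:116853045-116853344, minus strand: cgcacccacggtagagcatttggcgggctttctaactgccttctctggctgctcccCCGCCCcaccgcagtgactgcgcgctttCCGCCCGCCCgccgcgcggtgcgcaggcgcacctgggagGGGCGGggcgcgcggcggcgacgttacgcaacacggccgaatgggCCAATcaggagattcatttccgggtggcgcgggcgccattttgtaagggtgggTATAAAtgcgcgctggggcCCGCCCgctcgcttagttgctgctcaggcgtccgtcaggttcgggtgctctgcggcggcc
Srsf11 promoter, chr3:158036557-158036856, minus strand: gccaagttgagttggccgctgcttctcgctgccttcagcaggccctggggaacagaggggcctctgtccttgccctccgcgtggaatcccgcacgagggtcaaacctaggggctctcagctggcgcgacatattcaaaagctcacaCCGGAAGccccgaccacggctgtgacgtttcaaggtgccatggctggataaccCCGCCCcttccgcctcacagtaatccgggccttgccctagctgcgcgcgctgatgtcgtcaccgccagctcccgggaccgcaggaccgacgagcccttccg
Hnrnpa1 promoter, chr15:103240147-103240446, plus strand: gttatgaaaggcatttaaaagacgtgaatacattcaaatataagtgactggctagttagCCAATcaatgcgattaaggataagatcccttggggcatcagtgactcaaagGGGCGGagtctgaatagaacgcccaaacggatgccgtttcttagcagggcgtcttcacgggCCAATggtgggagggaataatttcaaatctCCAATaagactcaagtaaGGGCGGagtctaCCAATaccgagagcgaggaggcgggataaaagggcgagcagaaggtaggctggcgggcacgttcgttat
Hnrnpdl promoter, chr5:100039173-100039472, minus strand: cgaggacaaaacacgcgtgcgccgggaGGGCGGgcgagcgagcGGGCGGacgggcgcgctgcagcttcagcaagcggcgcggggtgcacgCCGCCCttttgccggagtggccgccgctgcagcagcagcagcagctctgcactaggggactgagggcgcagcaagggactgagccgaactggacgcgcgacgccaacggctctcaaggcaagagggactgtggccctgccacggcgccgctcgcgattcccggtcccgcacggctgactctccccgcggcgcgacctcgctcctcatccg
The Srsf2 window holds 5 GGGCGG matches with 1 CCAAT and 1 TATAAA, the Hnrnpa1 window 4 CCAAT and 2 GGGCGG matches, the Hnrnpdl window 3 GGGCGG matches, and the Srsf11 window 1 GGGCGG and 1 CCGGAAG. Such letters are common: RefSeq windows matched 57 of 65 members (75 windows), of which 66.7% hold GGGCGG, against 64.2% of windows of all listed genes and 35.7% of all mouse promoter windows. CCGGAAG was in 33.3% of members' windows, against 20.8% of windows of listed genes and 8.86% of all windows, and CCAAT in 46.7%, against 37.3% and 37.4% in those sets. TATAAA stood in 8% of members' windows, against 6.74% of windows of listed genes and 13.6% of all. The NRF1 element and TGACGTCA each stood in 2.67% of members' windows, against 2.39% and 3.41% of windows of listed genes and 0.971% and 1.79% of all windows. Of 13 SR protein windows 12 hold GGGCGG, 4 CCAAT and 6 CCGGAAG, and of 27 hnRNP windows 21 hold GGGCGG, 17 CCAAT and 4 CCGGAAG. A match is a description of letters, and binding was not measured.

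The Snrp genes split evenly, 5 of 10 with higher and 5 with lower means in Ly49G+ libraries, with a median log2 difference of -0.00. Of all genes 46.5% had higher means. The split was not even after the G+C correction described below, with 7 of 10 Snrp genes higher (median 0.08), where 3979 of 8235 genes were higher. Snrpb2, a U2 snRNP protein that binds the U2 RNA, had 43.8, 45.5 and 41.5 CPM in Ly49G+ libraries, against 36.9, 35.0 and 34.1 CPM in Ly49I+ libraries. The groups did not overlap (log2 difference 0.30 ± 0.09, adjusted p = 0.0861, or 0.0408 with the block), and it was the Snrp gene past the threshold with the block. The G+C correction added to the block gave 0.16 and ended the call (adjusted p = 0.249). Snrpb, which encodes the Sm proteins B and B' of the common core, had 28.8, 31.5 and 29.2 CPM in Ly49G+ libraries, against 30.7, 29.2 and 55.3 CPM in Ly49I+ libraries. The lower mean in Ly49G+ (-0.30 ± 0.20, adjusted p = 0.421, or 0.209 with the block) rests on Ly49I+ replicate 3, the other 5 libraries lying together. Of the other Sm genes, Snrpd1 (0.25 ± 0.11), Snrpe (0.23 ± 0.16) and Snrpd3 (0.14 ± 0.10) had higher means in Ly49G+, and Snrpd2 (-0.01 ± 0.16) and Snrpg (-0.09 ± 0.17) lower ones, with no adjusted p past the threshold under either fit. The U1 snRNP genes Snrpa and Snrpc differed by -0.04 ± 0.18 and -0.12 ± 0.14, and Snrpa1 of the U2 snRNP by 0.01 ± 0.11. Several of these are low, Snrpg having 10.6 to 12.9 CPM in Ly49G+ and 10.1 to 13.6 CPM in Ly49I+ libraries.

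Snrpb2 and Snrpb, at the ends of the Snrp range, are also at the ends of its base composition, with G+C making up 39.3% of the Snrpb2 transcript and 57.7% of the Snrpb transcript. The opening 150 coding bases of each, from GENCODE vM21 on GRCm38 and written 5′ to 3′, show it, with G and C in capitals.
Snrpb2 coding start, gene at chr2:143063069-143072052, plus strand: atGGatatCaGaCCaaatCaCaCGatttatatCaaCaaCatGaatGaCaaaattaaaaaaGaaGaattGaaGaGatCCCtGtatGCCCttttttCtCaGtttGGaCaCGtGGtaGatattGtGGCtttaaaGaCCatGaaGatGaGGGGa
Snrpb coding start, gene at chr2:130171636-130179382, minus strand: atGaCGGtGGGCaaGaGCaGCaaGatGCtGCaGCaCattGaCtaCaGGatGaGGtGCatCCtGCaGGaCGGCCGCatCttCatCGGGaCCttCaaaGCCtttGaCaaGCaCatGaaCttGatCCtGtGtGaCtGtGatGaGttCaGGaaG
G and C are 36.0% of the Snrpb2 stretch and 52.0% of the Snrpb stretch, and 41.0% and 60.2% of their whole coding sequences.

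Of 11 Sf3 and U2af genes, 0 passed under limma with or without the block, with voom weights, or at an unadjusted p of 0.05. Higher means in Ly49G+ libraries were seen for 4 of 11 (median -0.02), against 46.5% of all genes. After the G+C correction described below it was 6 of 11 (median 0.009), where 3979 of 8235 genes were higher. With the G+C content of the longest transcript it was 7 of 11 (median 0.04), where 3986 of 8235 genes were higher. Sf3b1, the U2 snRNP protein that clamps the branch point helix, had 896, 872 and 859 CPM in Ly49G+ libraries, against 825, 808 and 779 CPM in Ly49I+ libraries. The groups did not overlap, but the difference of 0.12 ± 0.07 on the log2 scale gave an adjusted p of 0.325, or 0.214 with the block. Sf3b6, which contacts the branch adenosine, had 74.8, 85.7 and 70.7 CPM in Ly49G+ libraries, against 71.8, 67.0 and 61.4 CPM in Ly49I+ libraries (0.21 ± 0.10, adjusted p = 0.265, or 0.117 with the block). U2af2, the large subunit that reads the polypyrimidine tract, had 130, 134 and 150 CPM in Ly49G+ libraries, against 138, 155 and 176 CPM in Ly49I+ libraries, lower in every pair by a mean of -0.18 ± 0.10 (adjusted p = 0.329, or 0.111 with the block). U2af1l4, a paralog of the small subunit, had 21.3, 25.4 and 24.2 CPM in Ly49G+ libraries, against 24.7, 27.2 and 30.4 CPM in Ly49I+ libraries (-0.21 ± 0.12, adjusted p = 0.324, or 0.197 with the block), and 94.3% of its exon bases lie under another annotated gene on the same strand. The small subunit gene U2af1 itself differed by -0.00 ± 0.08. Sf3b4 had 21.4, 17.0 and 20.4 CPM in Ly49G+ libraries, against 18.1, 16.9 and 36.3 CPM in Ly49I+ libraries, and Sf3a2 had 41.3, 36.4 and 44.6 CPM in Ly49G+ libraries, against 36.9, 43.5 and 61.6 CPM in Ly49I+ libraries. As with Snrpb, a high Ly49I+ replicate 3 set the lower means of Sf3b4 and Sf3a2 in Ly49G+. Sf3b2, which sits near the branch point, had a difference of -0.02 ± 0.08, whose sign turned under median centring and under correction for G+C content.

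Among Prpf genes, 9 of 12 had higher means in Ly49G+ libraries, against 46.5% of all genes. After the G+C correction described below it was also 9 of 12, where 3979 of 8235 genes were higher. With the block 1 of 12 passed as higher, against 5.69% of all genes. Prpf38b, a protein related to yeast Prp38 with an arginine- and serine-rich tail, had 551, 498 and 543 CPM in Ly49G+ libraries, against 450.3, 475 and 395 CPM in Ly49I+ libraries. All Ly49G+ values were higher (log2 difference 0.27 ± 0.08, adjusted p = 0.109, or 0.0322 with the block), and the G+C correction added to the block gave an adjusted p of 0.0548. Prpf39, related to a yeast U1 snRNP protein, had 174, 177 and 144 CPM in Ly49G+ libraries, against 177, 137 and 122 CPM in Ly49I+ libraries (0.20 ± 0.13, adjusted p = 0.415, or 0.125 with the block). The kinase gene Prpf4b had 549, 525 and 476 CPM in Ly49G+ libraries, against 537, 435 and 417 CPM in Ly49I+ libraries (0.16 ± 0.10, adjusted p = 0.377, or 0.127 with the block). Prpf8, the scaffold of the catalytic centre, had 708, 712 and 737 CPM in Ly49G+ libraries, against 728, 736 and 750.1 CPM in Ly49I+ libraries (-0.04 ± 0.07, 95% interval -0.18 to 0.11). The tri-snRNP genes Prpf3, Prpf4, Prpf6 and Prpf31 ranged from -0.04 to 0.09. Prpf18, a factor of the second catalytic step, had 67.3, 69.7 and 70.9 CPM in Ly49G+ libraries, against 77.5, 73.2 and 71.3 CPM in Ly49I+ libraries, and its difference of -0.09 ± 0.08 did not pass (adjusted p = 0.499, or 0.455 with the block).

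The Srrm genes, which encode SR-related proteins of the nuclear matrix, did not pass under either fit, with the unadjusted limma p above 0.05 for both. Srrm2, a core protein of nuclear speckles with the most CPM of any member, had 1531, 1706 and 1592 CPM in Ly49G+ libraries, against 1710, 1632 and 1495 CPM in Ly49I+ libraries. Its difference was -0.00 ± 0.08, with a 95% interval of -0.18 to 0.18 on the log2 scale, and took a positive sign under several alternatives. Srrm1 had 254, 257 and 269 CPM in Ly49G+ libraries, against 258, 260 and 244 CPM in Ly49I+ libraries (0.04 ± 0.07).

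**Figure D3:**
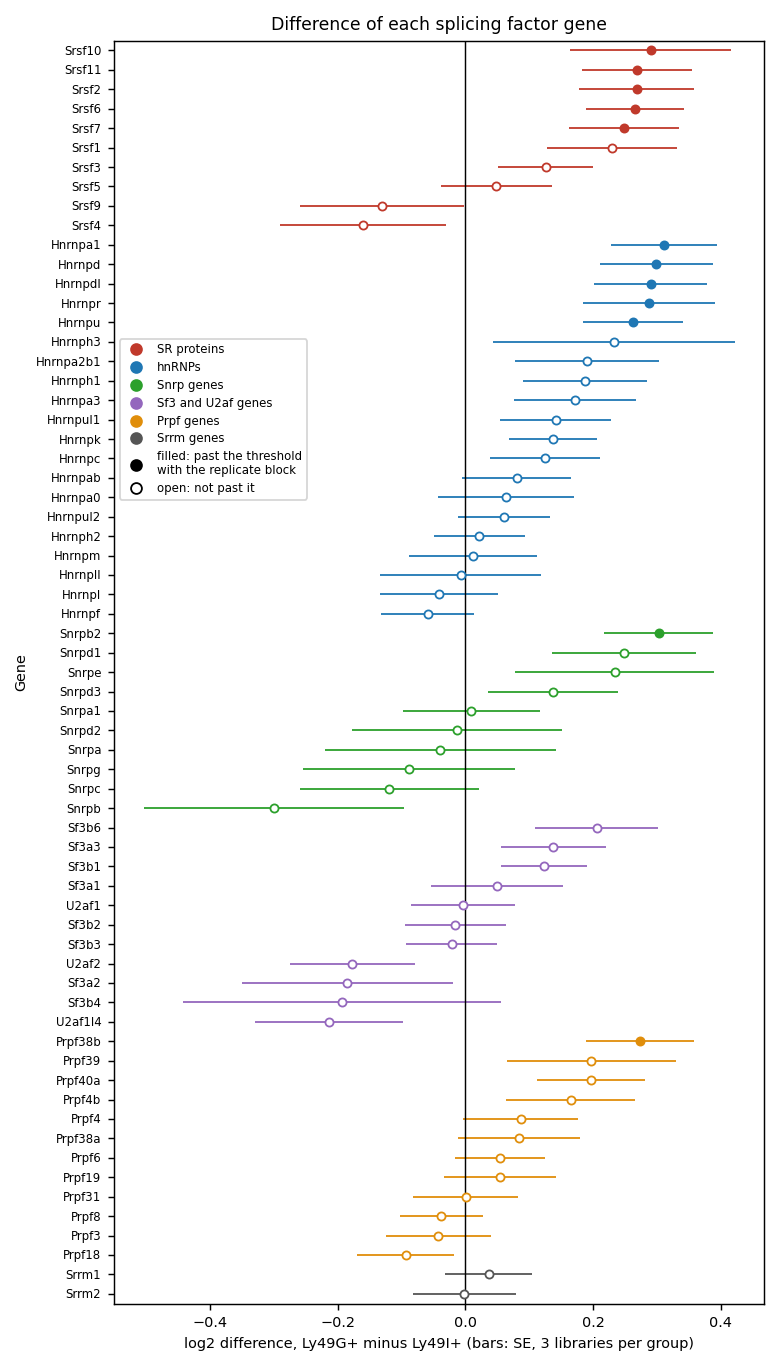
Log2 difference of Ly49G+ minus Ly49I+ for the 65 splicing factor genes, ordered within family. Bars give the SE of the fit without the replicate block, 3 libraries per group. Filled points passed the threshold with the replicate block, and all 12 lie right of 0, 5 of them SR proteins and 5 hnRNPs, while Snrpb at -0.30 lies farthest left.

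Of 189 other genes of the splicing pathway, in a list that holds Snrnp, Lsm, Rbm, DEAD-box, exon junction and kinase genes, 178 were listed. In limma 0 of 178 passed, as for the members. At an unadjusted p of 0.05, 21 (11.8%) were higher in Ly49G+, against 9.59% of all genes, and 0 were lower, against 10.2%. In all 109 (61.2%) had higher means in Ly49G+, against 46.5% of all genes, with a median difference of 0.05. With the block 9 of 178 (5.06%) passed, all higher in Ly49G+, near the 5.69% of all genes that passed as higher. In either direction 11.65% of all genes passed. With the block and correction for G+C content 4 passed, 3 of them (1.69%) higher and 1 (0.562%) lower in Ly49G+, against 4.53% and 3.92% of all genes. The 4, named here after their values were seen, were Sfpq, Pnn and Acin1 (corrected difference 0.20, adjusted p = 0.0451), which were higher, and Qk (-0.27, adjusted p = 0.0182), which was lower. Acin1 and Qk did not pass with the block alone. Sfpq, an RNA-binding protein of paraspeckles, had 491, 484 and 460 CPM in Ly49G+ libraries, against 443, 386 and 373 CPM in Ly49I+ libraries (0.26 ± 0.08, adjusted p = 0.111, or 0.0222 with the block). Pnn, a protein of the exon junction complex, had 303, 278 and 270 CPM in Ly49G+ libraries, against 268, 214 and 214 CPM in Ly49I+ libraries (0.30 ± 0.10, adjusted p = 0.130, or 0.0127 with the block).

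The differences followed the base composition of the transcripts. Across the 65 members, the log2 difference and the G+C content of the transcripts had a Spearman correlation of -0.63 and a Pearson correlation of -0.66, and across 8235 genes with an annotated transcript the Spearman correlation was -0.53. These are descriptions over genes that share the same 6 libraries. Of the 22 members with up to 44.7% G+C, 21 had higher means in Ly49G+ (median 0.20, against 0.11 for the 1808 genes in that range, 77.9% of them higher). Of the 21 members between 44.7% and 51.1%, 16 did (median 0.08, against 0.02 for 2927 genes, 55.0% of them higher). Of the 22 members above 51.1%, 7 did (median -0.03, against -0.12 for 3500 genes, 22.7% of them higher). SR proteins and hnRNPs had median G+C contents of 45.0% and 44.8%, against 49.8% over all genes, and the Sf3 and U2af genes 53.3%.

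**Figure D4:**
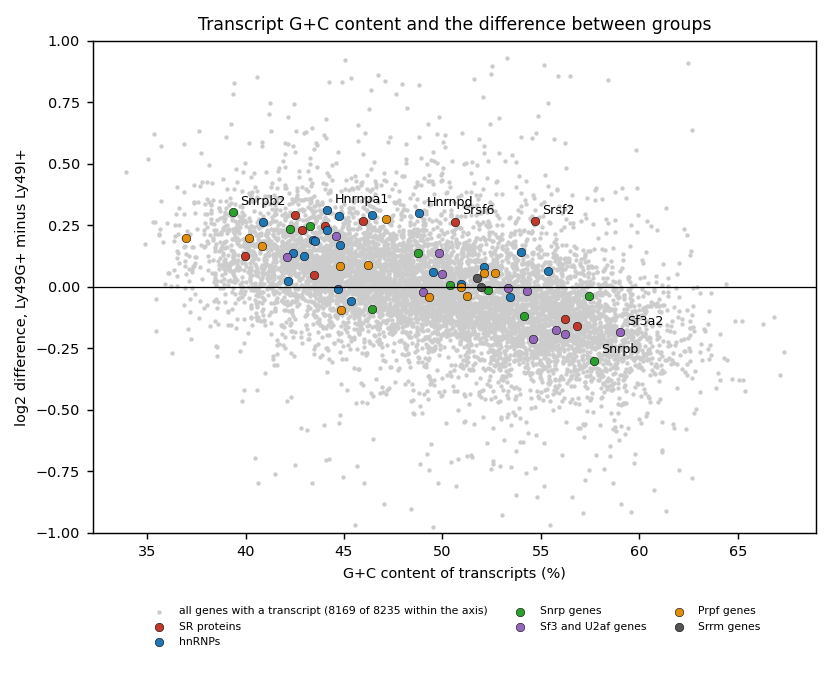
Log2 difference of Ly49G+ minus Ly49I+ against the G+C content of transcripts in percent, for 8169 of 8235 genes that lie within the axis (grey) and the 65 splicing factor genes (coloured by family). Members and other genes alike slope down to the right, and Srsf2 at 54.7% G+C lies above the cloud around it.

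When each library's deviations were smoothed on G+C content and the trend subtracted, with the block, 7 members (10.8%) passed, all higher in Ly49G+, where 4.53% of all genes were higher and 3.92% lower. They were Srsf2, Srsf6, Srsf11, Hnrnpa1, Hnrnpd, Hnrnpdl and Hnrnpr. Srsf2, with 54.7% G+C, had its difference raised from 0.27 to 0.37 (adjusted p = 0.00213), but only to 0.28 with the G+C content of the longest transcript. Srsf6, with 50.6%, had 0.29 (adjusted p = 0.00735). Hnrnpu with 40.9% G+C, Snrpb2 with 39.3%, Srsf7, Srsf10 and Prpf38b no longer passed. With the G+C content of the longest transcript in place of the median over transcripts, 4 members (6.15%) passed, all higher in Ly49G+, where 4.27% of all genes were higher and 3.86% lower, namely Srsf2 (adjusted p = 0.0124), Srsf11 (0.0297), Hnrnpa1 (0.0273) and Hnrnpdl (0.0237).

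Libraries differed in this trend within the groups as well. The Spearman correlation of a member's deviation with its G+C content was -0.61, -0.63 and 0.19 in Ly49G+ replicates 1, 2 and 3, and -0.48, 0.35 and 0.72 in Ly49I+ replicates 1, 2 and 3. Ly49I+ replicate 3 stood farthest out, with 17 members at their highest there, 4 of them (Snrpb, Sf3b4, Sf3a2 and Srsf4) by at least 0.3 on the log2 scale over the next library. Ly49G+ replicate 2 held the highest value of 27 members, 1 of them (Snrpe) by such a margin. Over families, the mean deviation of SR proteins was 0.10, 0.17 and -0.05 in Ly49G+ replicates 1, 2 and 3, and -0.05, -0.11 and -0.06 in Ly49I+ replicates 1, 2 and 3. That of hnRNPs was 0.09, 0.12 and -0.01 in Ly49G+, and 0.01, -0.11 and -0.11 in Ly49I+ libraries. Both families had a lower mean in Ly49G+ replicate 3 than in the other Ly49G+ libraries. The cause of this trend was not tested.

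**Figure D5:**
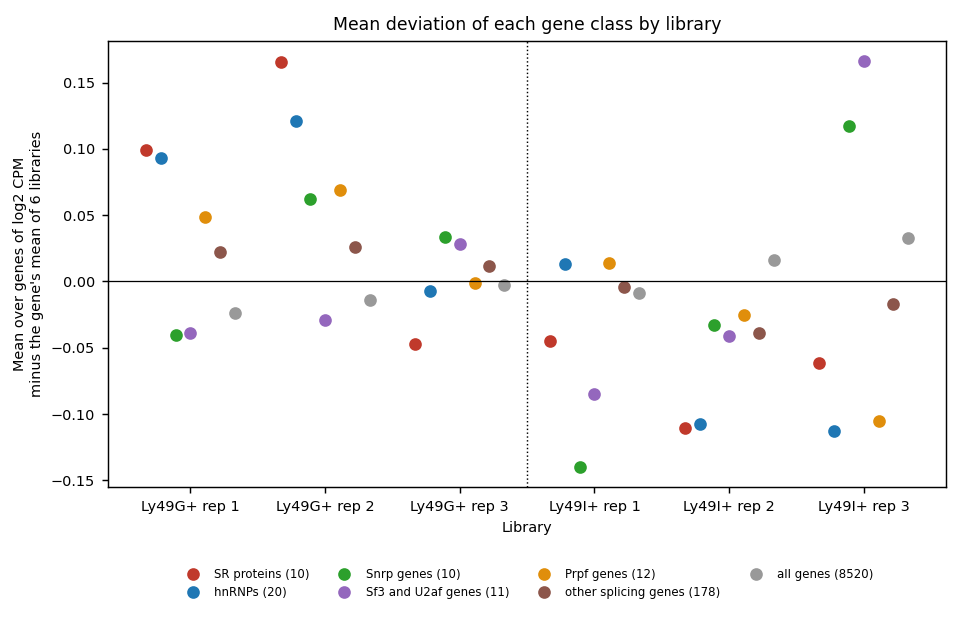
Mean over the genes of each family of log2 CPM minus the gene's mean over 6 libraries, by library, with Ly49G+ left of Ly49I+ and the numbers of genes in the legend; the 2 Srrm genes are left out. SR proteins stand at 0.10 and 0.17 in Ly49G+ replicates 1 and 2 and below 0 in the other 4 libraries, and the Sf3 and U2af genes stand highest, at 0.17, in Ly49I+ replicate 3.

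The counts are sums over a gene's isoforms. Transcripts annotated as targets of nonsense-mediated decay, which many SR protein and hnRNP genes make through poison exons that limit their own output, are annotated for 9 of 10 SR protein genes and 10 of 20 hnRNPs, and for 35 of 65 members (53.8%), against 32.3% of all genes with a transcript. Whether productive or poison isoforms differed was not measured. Reads of 22 members could be split with other annotated genes, since over 1% of their 100-base windows occur in another gene. Among them are U2af1l4 (51.7%), Hnrnpa1 (43.0%), U2af1 (42.4%), Sf3b4 (36.9%), Hnrnpf (35.1%), Hnrnpa3 (27.2%), Hnrnpm (26.0%) and Srsf3 (20.7%), and the levels of these members are uncertain. Such a gene may be a near-copy or may overlap the member. An annotated gene on the same strand overlaps 94.3% of the exon bases of U2af1l4 and 28.6% of those of Hnrnpm. Exons of 17 members overlap an annotated gene on the opposite strand and those of 5 overlap one on the same strand. Of the 12 members past the threshold with the block, Hnrnpd (5.65% of exon bases) and Hnrnpr (3.33%) have such an overlap, on the opposite strand; the libraries were stranded, but the sources used here do not say whether the counting used strand.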

How the data were processed

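RNA was measured in 3 Ly49G+ and 3 Ly49I+ libraries made from 0.4 µg of total RNA with a stranded kit and sequenced as pairs of 100-base reads, per the labels' protocols. CASAVA 1.8.2, STAR 2.3.0, limma and build mm10 were used, per the submitters' processing notes; the sources used here name no read counter, annotation or low-count filter. The authors deposited log2 CPM, whose values follow the voom formula (0.5 added to counts, 1 to totals). Solving it gave whole reads for 100% of values within 0.001 read. Gene numbers were matched to RefSeq names (GRCm38.p6, which mm10 represents) for 8429 of 8520 genes. Lengths, G+C contents and coding sequences came from GENCODE vM21 transcripts (8235 genes, medians over basic protein-coding transcripts).

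The test was limma 3.58.1 (R 4.3.3) with an intensity trend on those log2 values as deposited, two-sided, of the difference Ly49G+ minus Ly49I+. P-values were adjusted by Benjamini-Hochberg over 8520 genes at 0.05; the steps were tested on simulated data. Deviations of same-numbered libraries of the groups had correlations of 0.371, 0.114 and 0.156 over genes, each above 0.1. Among unlike numbers, Ly49G+ replicate 3 and Ly49I+ replicate 2 reached 0.359, and Ly49G+ replicate 2 and Ly49I+ replicate 1 reached 0.115. These correlations do not single out pairing by number. The labels share the numbers without saying what they mark, so the pairing comes from these data, and the fit with the replicate number as a block is given beside each result whose call it changes. Alternatives were no trend, a robust prior, voom weights, median centring, quantile normalization, a minimum mean of 4, a pseudocount of 2 reads, the block and leaving out each library. Added after seeing the data were corrections for G+C content (a lowess with span 0.3 per library) with and without the block. Named are all members past the threshold and, per family, the 2 highest and the 2 with the largest difference; others were named after their values were seen. The members and lists were chosen with earlier results of these data known. Python 3.11.15, pandas 2.3.3, numpy 2.4.6 and matplotlib 3.10.9 were used.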

Additional observations from a re-analysis of the deposited data

How the results depend on the processing

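Over all genes 306 passed the threshold, 993 with the replicate block, 520 with the G+C correction (544 with the longest transcript), 696 with the block and the G+C correction (670), and 94 to 644 when a library was left out, Ly49G+ replicate 2 giving 94 and Ly49I+ replicate 1 giving 644. Without Ly49G+ replicate 1, Ly49G+ replicate 3 or Ly49I+ replicate 2 the counts were 155, 168 and 207. With the block 18.5% of members passed, against 11.65% of all genes in either direction. With the G+C correction it was 4.6% against 6.3% (4.6% against 6.6% with the longest transcript). With both it was 10.8% against 8.45% (6.15% against 8.14%), and without Ly49I+ replicate 1 it was 10.8% against 7.56%. In numbers, members past the threshold, 0 otherwise, were 12 with the block, 3 with the G+C correction (3 with the longest transcript), 7 with both (4), and 0 to 7 when a library was left out. Of these, SR proteins made up 5 with the block, 2 (1) with the G+C correction, 3 (2) with both and 0 to 1 with a library left out; hnRNPs made up 5, 1 (2), 4 (2) and 0 to 6; Snrp and Prpf genes 1 each with the block. Other splicing genes numbered 9 with the block, 2 (2) with the G+C correction, 4 (3) with both and 0 to 8 with a library left out. Of 27 named members, 4 with differences near 0 changed sign: Srsf5 to -0.0483 with the G+C correction (-0.0197 with the longest transcript), with or without the block, and -0.00826 to 0.121 when a library was left out; Sf3b2 to 0.00283 under median centring, 0.0828 (0.0824) with the correction and -0.0773 to 0.0513 with a library left out; Prpf8 to 0.00621 with the longest transcript; and Srrm2 to 0.017 under median centring, 0.0484 (0.0595) with the correction and -0.0551 to 0.0419 with a library left out. The cause of these shifts was not tested. The other members of these 27 kept their direction under the 18 alternatives. Of the 38 members outside the 27, 10 changed sign: U2af1, Snrpa, Snrpd2, Hnrnpl, Hnrnph2 and Srsf3 with the block and either G+C correction, Sf3a2 with the longest transcript, and Snrpa1, Sf3a1 and Prpf19 without Ly49I+ replicate 1. For these 38 no other setting was examined. Differences below about the SE of 0.07 to 0.25 on the log2 scale are beyond the precision of 3 libraries per group.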
